A study of Mus musculus with 8 samples.

Results

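The miR-23, miR-27 and miR-24 miRNAs are made from 2 gene clusters, and 7 of the 567 mouse miRNAs on the array belong to them. They were chosen by name as mmu-miR-23a, mmu-miR-23b, mmu-miR-27a, mmu-miR-27b, mmu-miR-24, mmu-miR-24-1* and mmu-miR-24-2*, written without the mouse prefix from here on; an asterisk marks the other strand of a hairpin. Their levels were read in skeletal muscle on 8 1-colour arrays, 4 labelled control and 4 labelled diabetic, with 100 ng of RNA each. The series describes C57BL/KsJ db/db mice, which lack a working leptin receptor and become obese and diabetic, and C57BL/KsJ db+ mice as normal controls. The strain entry of each sample names the opposite genotype (db/db for control, db+ for diabetic), so groups follow the title, description and group entry. The muscle sampled and the age and sex of the mice are not given in the sources used here, nor is it said whether arrays came from separate animals, so p-values measure the spread between these arrays. The control arrays filled row 1 of the slide and the diabetic arrays row 2, so row and group cannot be told apart.

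Each cluster is copied as one transcript that holds 3 hairpins, from which the processing enzymes cut the mature miRNAs. As background, miR-23a represses the translation of MuRF1 and atrogin-1, the ubiquitin ligases of muscle wasting. miR-27 is known as a brake on fat-cell formation through PPARγ and, in muscle precursor cells, as a repressor of Pax3. miR-24 is known to promote muscle differentiation and is repressed by TGF-β.

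In GRCm38.p6, the build of the RefSeq table used for names and sequences (the array design names mm9), Mir23a, Mir27a and Mir24-2 lie within 404 bases of chromosome 8, plus strand. Mir23b, Mir27b and Mir24-1 lie within 792 bases of chromosome 13, plus strand, inside the gene Aopep. Mature sequences were found for 6 of the 7 members; miR-23b is named only. They are shown 5′ to 3′ with the seed, bases 2 to 8, in capitals, because the seeds set which members share targets and the near-identical ends set how far probes can tell members apart.
miR-23a: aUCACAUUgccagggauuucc
miR-27a: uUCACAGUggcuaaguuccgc
miR-27b: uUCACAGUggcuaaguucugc
miR-24: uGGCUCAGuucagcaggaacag
miR-24-1*: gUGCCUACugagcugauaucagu
miR-24-2*: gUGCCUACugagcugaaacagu

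miR-27a and miR-27b share their seed and differ by 1 substitution, C19U, counted from the 5′ end with the miR-27a base first. The seed of miR-23a differs from that of miR-27a by 1 base, U7G. Both Mir24 hairpins give the same 22-base miR-24, so its probes read the output of both clusters together. The other strands do differ by locus: miR-24-1* and miR-24-2* share their first 16 bases and their seed, and then diverge. Cross-hybridisation between paralogues was not tested.

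No member passed the test of diabetic against control arrays. The test covered 126 miRNAs, each detected on 4 or more arrays, and 6 of them were members. With limma 0 of these 6 passed (Benjamini-Hochberg adjusted p under 0.05 over all 126); 0 of 6 also had an unadjusted p under 0.05. Among all 126 tested miRNAs 4.76% passed and 16.7% had an unadjusted p under 0.05. miR-24-2* was detected on 0 arrays and has no test. The median log2 difference of the 6 members was 0.033, against −0.060 over all tested miRNAs, and 4 of 6 were positive, against 58 of 126.

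Levels below are log2 of the intensity after each array was divided by its own 75th percentile, taken over 152 probes that every array detected; they compare arrays, not miRNAs. miR-23a was at 0.29, −0.28, 0.11 and 0.35 on control arrays 1 to 4 and at −0.02, −0.13, −0.23 and −0.03 on diabetic arrays 1 to 4. All 4 diabetic values lay inside the control range. The log2 difference was −0.22 (SE 0.21, 95% interval −0.67 to 0.23, limma adjusted p = 0.699). It was −0.35 without control 2 and −0.14 without control 4.

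Its paralogue miR-23b was at −0.69, −1.13, −0.62 and −0.43 on the control arrays and at −0.65, −0.55, −0.72 and −0.74 on the diabetic arrays. The diabetic values again lay within the control range, and only control 2 stood below them all. The log2 difference of miR-23b was 0.05 (SE 0.21, 95% interval −0.40 to 0.51, limma adjusted p = 0.886), and without control 2 it was −0.084.

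miR-27a was at 0.53, 0.39, 1.02 and 1.11 on the control arrays and at 0.89, 0.68, 0.85 and 0.66 on the diabetic arrays. The control arrays fell into a lower and a higher pair, and all diabetic values lay between them. The log2 difference was 0.01 (SE 0.22, 95% interval −0.48 to 0.50, limma adjusted p = 0.963). Its sign turned without control 1 (−0.066), control 2 (−0.11), diabetic 1 (−0.029) or diabetic 3 (−0.015).

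miR-27b was at −2.59, −2.73, −2.20 and −2.27 on the control arrays and at −2.10, −2.21, −2.14 and −2.47 on the diabetic arrays. Diabetic 1 and diabetic 3 exceeded every control array, and the other 2 lay within the control range. The log2 difference was 0.22 (SE 0.21, 95% interval −0.24 to 0.67, limma adjusted p = 0.699). It was 0.12 without control 2, 0.11 without scaling and 0.54 when every mouse probe entered the percentile.

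miR-24 was at 0.84, 0.32, 0.69 and 0.95 on the control arrays and at 0.59, 0.44, 0.42 and 0.46 on the diabetic arrays. All diabetic values lay above control 2 and below the other 3 control arrays. The log2 difference was −0.22 (SE 0.20, 95% interval −0.67 to 0.22, limma adjusted p = 0.699), and it was −0.35 without control 2 and −0.14 without control 4.

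miR-24-1*, the 5′ strand of the Mir24-1 hairpin, had the largest difference among the members. It was at −5.29, −4.71, −3.50 and −3.78 on the control arrays and at −3.72, −3.52, −3.37 and −4.07 on the diabetic arrays. Control 1 and control 2 were below every diabetic array, while control 3 and control 4 lay within the diabetic range. The log2 difference was 0.65 (1.57-fold; SE 0.36, 95% interval −0.15 to 1.45, limma adjusted p = 0.43), the rank of its size being 24 among the 126. It was 0.33 without control 1, where miR-24-1* was not well above background, and 0.92 without control 3. With normexp background correction it was 0.21.

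**Figure D1:**
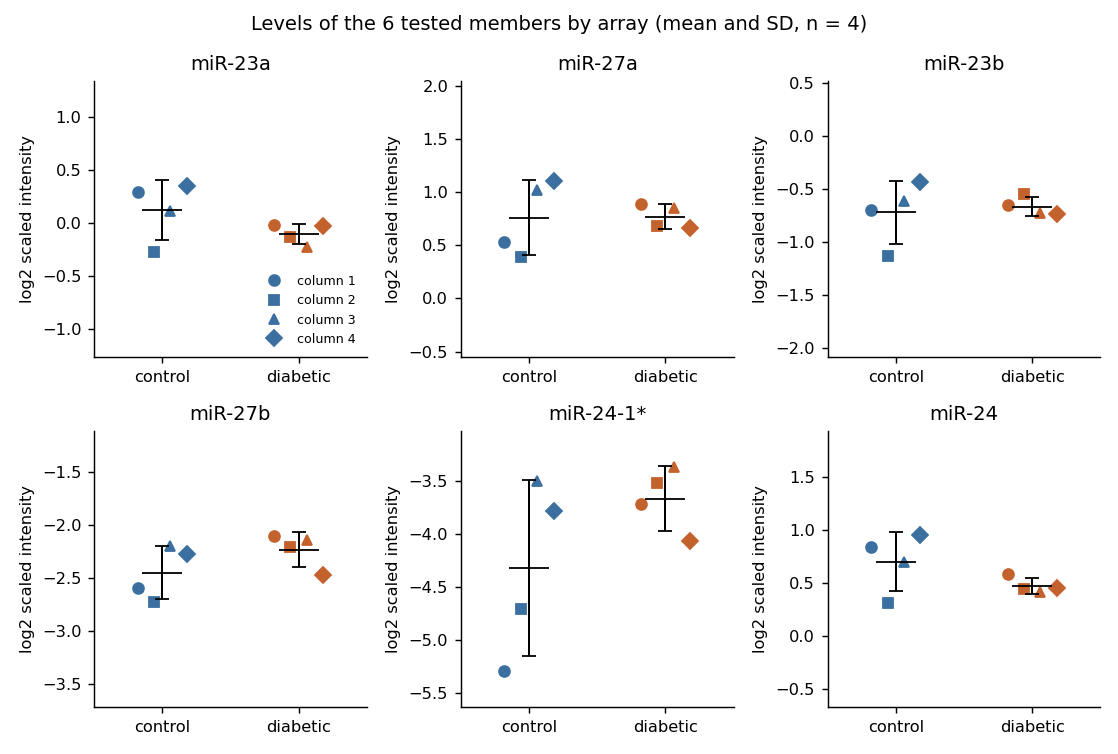
Log2 scaled intensity (vertical axis) of the 6 tested members on the 4 control and 4 diabetic arrays; marker shape gives the slide column, and bars the mean and SD (n = 4). The control arrays spread more widely than the diabetic arrays for every member, and the groups overlap in each panel.

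**Figure D2:**
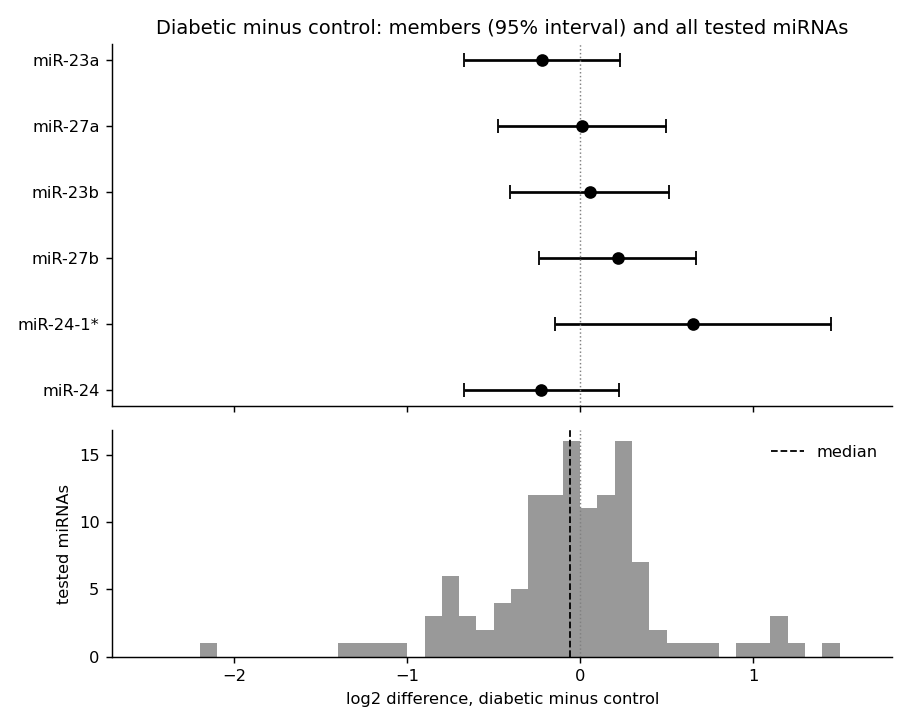
Log2 difference, diabetic minus control, of the 6 members with 95% limma intervals (top) and the number of tested miRNAs by log2 difference (bottom, dashed line at the median). Every member's interval includes 0.

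In 6 of 6 members the SD was larger over the control than over the diabetic arrays, as it was for 113 of all 126 tested miRNAs. The median SD of the members was 0.29 on the control and 0.11 on the diabetic arrays, against 0.43 and 0.23 over all tested miRNAs. For 5 of the 6 members, all but miR-24-1*, the lowest control value was that of control 2, the brightest array (75th percentile 618, against 219 to 479 on the other 7). How often control 2 was lowest among all 126 was not counted, so this is not shown to be particular to the members. The part of brightness in these levels was not tested. No tested member had groups that did not overlap, a separation found for 8.73% of the 126 miRNAs.

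The strands of miR-24 differed in how far they could be measured. Each member had 2 probes of 10 spots. The miR-24 probes had mean intensities of 407 to 1025 and 195 to 512 over the 8 arrays, and all 150 spots kept were well above background. The brighter miR-24-1* probe had 14.3 to 73.9, with 67 of 76 spots above background, but 2 of 10 on control 1. Its dimmer probe had 1.46 to 12.4 and 2 of 77 spots above. For miR-24-2*, the corresponding strand of the other cluster, 0 of 153 spots on both probes were well above background and mean intensities ran from −3.25 to 1.81. Of the 2 hairpins, the 5′ strand of Mir24-1 was detected and that of Mir24-2 was not, at the sensitivity of these probes.

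The 2 probes of a member gave like differences where both were bright. For miR-23a they gave −0.22 and −0.23, for miR-24 −0.22 and −0.24, and for miR-27a 0.0099 and 0.013. For miR-23b they disagreed in sign, at 0.078 and −0.052, both small against the SE of 0.21. The brighter miR-27b probe, at 74.2 to 181, gave 0.20. Its dimmer probe, at 4.93 to 26.8 over all arrays, was detected on 0 control arrays and on 3 diabetic arrays. It gives only a bound on the control arrays and on diabetic 4, where it had 4.93.

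Cluster mates made from one transcript, paralogues and strands were next compared through their log2 intensity ratio on each array, in which the scaling of that array cancels. Ratios below are relative to their mean on the control arrays. Of 15 pairs listed, 4 included miR-24-2* and could not be tested. Among the other 11, 0 passed the two-sided exact permutation test over 70 assignments of the arrays after Benjamini-Hochberg adjustment over the 11, and 2 had the smallest unadjusted p it allows, 0.0286. At least 7 of the 11 would have to reach that p for any to pass. In these 2 pairs the groups did not overlap, and 2 of 11 equals the background: 18.2% of all 7875 pairs of tested miRNAs had ratios that did not overlap.

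Both of these pairs set miR-23b against miR-23a or miR-24. Both rest on the mean of the miR-23b probes, in which the brighter one weighs more. That probe gave a difference of 0.078 and the dimmer one −0.052. The ratios were not tested with the dimmer probe alone, but its levels can be set beside those of the partners. On control 3 it was at −2.021, with miR-23a at 0.109, and on diabetic 4 at −2.166, with miR-23a at −0.028. With this probe the groups of miR-23a to miR-23b therefore overlap. Those of miR-23b to miR-24 stay apart, but control 3 (−2.021, miR-24 0.694) and diabetic 3 (−2.290, miR-24 0.415) nearly meet. The first separation thus depends on the probe. The ratio of miR-23a to miR-23b was at 0.15, 0.019, −0.11 and −0.059 on the control arrays and at −0.21, −0.42, −0.34 and −0.13 on the diabetic arrays. All diabetic arrays were lower, though control 3 and diabetic 4 nearly met. The change was −0.28 (95% interval −0.57 to −0.02 by inversion of the exact test; exact permutation p = 0.0286, adjusted p = 0.157).

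The ratio of miR-23b to miR-24 was at −0.11, −0.031, 0.11 and 0.035 on the control arrays and at 0.18, 0.43, 0.28 and 0.23 on the diabetic arrays. All 4 diabetic values were above all control values. The change was 0.28 (95% interval 0.08 to 0.54; exact permutation p = 0.0286, adjusted p = 0.157). Because miR-23a and miR-24 moved almost together, these are close to 1 observation made with 2 partners.

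In the same direction, the ratio of miR-27b to miR-24 was higher by 0.44 on the diabetic arrays (95% interval −0.03 to 0.87; exact permutation p = 0.0571, adjusted p = 0.189), with diabetic 4 below control 3. The ratio of the paralogues miR-27a and miR-27b changed by −0.21 (95% interval −0.49 to 0.02; exact permutation p = 0.0857, adjusted p = 0.189). So in both paralogue pairs the chromosome 8 member had the lower difference, with neither pair passing.

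For the strands of Mir24-1, the ratio of miR-24-1* to miR-24 was at −1.11, −0.0028, 0.82 and 0.28 on the control arrays and at 0.71, 1.06, 1.23 and 0.49 on the diabetic arrays. All 4 diabetic arrays exceeded the control mean, but control 3 exceeded diabetic 1 and diabetic 4. The change was 0.87 (95% interval −0.33 to 2.33; exact permutation p = 0.0857, adjusted p = 0.189), and it was 0.51 without control 1 and 0.42 with normexp; with quantile normalization it was 1.26. Because miR-24 also comes from Mir24-2, this is not the ratio of strands of 1 hairpin.

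**Figure D3:**
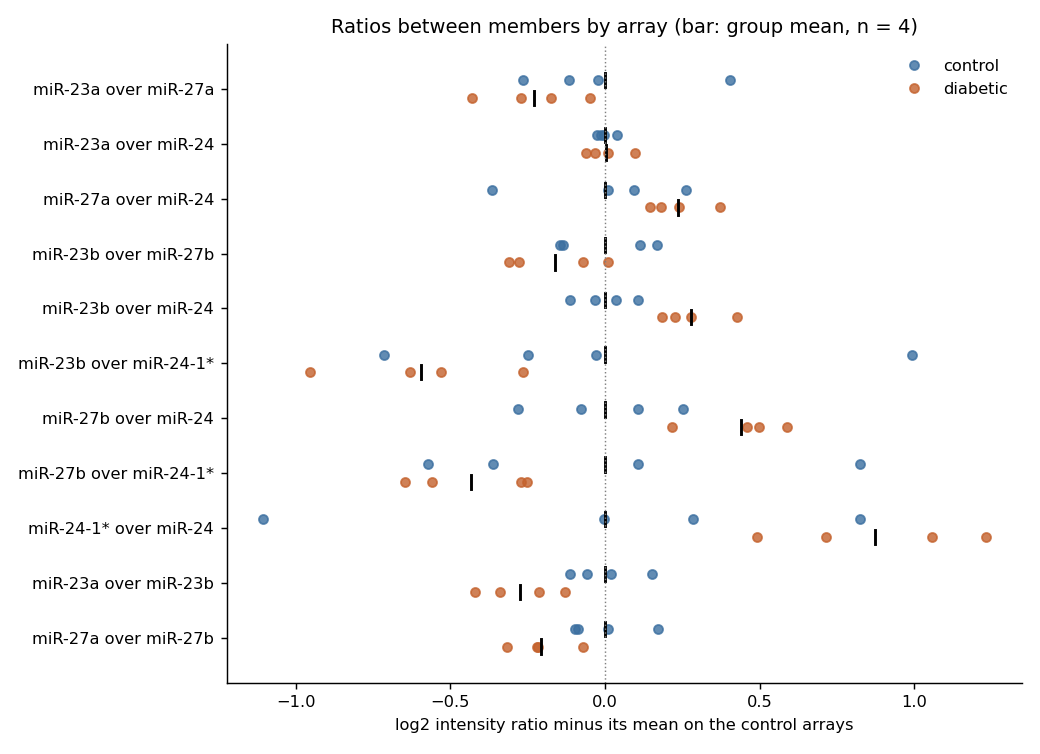
Log2 intensity ratio of each of the 11 member pairs, minus its mean on the control arrays (horizontal axis), for each control and diabetic array; bars mark group means (n = 4). The groups separate for miR-23b over miR-24 and miR-23a over miR-23b, and the points of miR-23a over miR-24 lie closest together.

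The ratio of miR-23a to miR-24 was the steadiest of all. It stayed at 0.039, −0.012, −0.0032 and −0.024 on the control arrays and at −0.031, 0.0094, −0.060 and 0.098 on the diabetic arrays. Its SD over the 8 arrays was 0.048, rank 1 of 7875 pairs of tested miRNAs, whose median SD was 0.54. The change between groups was 0.0041 (95% interval −0.095 to 0.12; exact permutation p = 0.914, adjusted p = 0.914). These are different sequences with different seeds, made on the same chromosome 8 transcript with Mir27a between them, and miR-24 is also made on chromosome 13. Both are bright, and the part of brightness in this rank was not tested.

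Mates on one transcript did not always stay so close. The ratio of miR-23a to miR-27a, neighbours on chromosome 8, had an SD of 0.25, with rank 939 of 7875, and ran from 0.41 on control 1 to −0.43 on diabetic 3. That of miR-27a to miR-24 had an SD of 0.22, with rank 715. On chromosome 13, miR-23b to miR-27b had an SD of 0.17, with rank 287. There miR-23b to miR-24 had 0.18, with rank 314, and miR-27b to miR-24 had 0.30, with rank 1465. The paralogue ratio of miR-27a to miR-27b had an SD of 0.15 and rank 188, and that of miR-23a to miR-23b 0.19 and rank 385. Both were steadier than miR-23a to miR-27a. The ratio of miR-23a to miR-23b was less steady than miR-23b to miR-27b and miR-23b to miR-24. The 3 pairs with the dim miR-24-1* had SDs of 0.48 to 0.74.

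**Figure D4:**
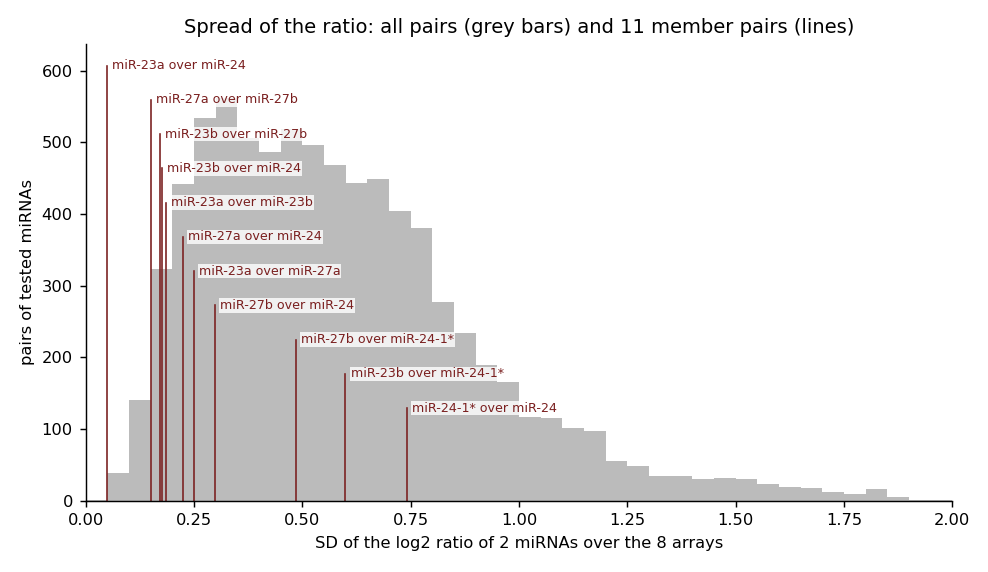
Number of pairs of tested miRNAs (vertical axis, grey bars) by the SD of their log2 ratio over the 8 arrays (horizontal axis, drawn up to 2), with a line for each of the 11 member pairs. miR-23a over miR-24 stands at the left end, at 0.048, and the pairs with miR-24-1* at 0.48 to 0.74.

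The nearest patterns among all tested miRNAs were found from the root-mean-square distance between log2 levels over the 8 arrays, each centred on its own mean. miR-24 was nearest to miR-23a, and miR-23a to miR-24, at 0.045, where the median over all pairs was 0.50. For both the next were miR-185 and miR-155, the latter known from activated immune cells, at 0.073 and 0.091 from miR-23a and at 0.092 and 0.10 from miR-24. miR-155 was dim and detected on 7 arrays. Its means of −5.25 on the control and −5.45 on the diabetic arrays were near the lowest value allowed, −5.95. miR-27a was nearest to let-7f (0.13), miR-195 (0.14) and miR-27b (0.14), and miR-27b to miR-26b (0.096), miR-30e (0.12) and miR-27a (0.14). miR-23b was nearest to miR-195, miR-30e and let-7i, at 0.11 each, with miR-23a at rank 21 of 125. miR-24-1* was nearest to miR-101a (0.32), miR-29b (0.42) and miR-101b (0.43), with its sister strand miR-24 at rank 56. All arrays share a slide, so these distances are descriptions. The scaling of an array cancels in them, as in the ratios.

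Of 17 other miRNAs linked to muscle mass or fat-cell formation, 13 were tested, with a median of 0.095, against −0.060 over all 126 tested miRNAs. Of the 13, 2 passed as higher, miR-29b (0.99, limma adjusted p = 0.0283) and miR-29c (1.25, limma adjusted p = 0.00642), and 0 as lower. Among all 126 tested miRNAs 6 (4.76%) passed, all as higher and these 2 among them. The list was drawn up with earlier results of these data known, so the count is a description. The muscle identity of the RNA showed in miR-1, miR-133a, miR-133b and miR-206, each detected on all 8 arrays. Of the rest of the muscle list, miR-486 was detected on 8 arrays, miR-208b on 4 and miR-499 on 0. Of these 7 muscle miRNAs 6 were tested and 0 passed, with a median of 0.036. The log2 of their summed level, added before the log and so led by the brightest, was 5.73 to 6.70 on the control arrays. It was 6.29 to 6.74 on the diabetic arrays. miR-206 had the largest difference of the 6, −1.33 (SE 0.44, limma adjusted p = 0.132), and miR-208b was at −0.53 (SE 0.54). Of 4 endothelial miRNAs, miR-126-3p was detected on all 8 arrays (log2 difference −0.065, SE 0.23, limma adjusted p = 0.886) and miR-126-5p, miR-221 and miR-222 on 0. Of 6 leukocyte miRNAs 3 were tested and 0 passed, with a median of −0.80. They were miR-223 (−1.29, limma adjusted p = 0.344), miR-342-3p (−0.80, limma adjusted p = 0.0611) and miR-155 (−0.20, limma adjusted p = 0.699). The log2 of the summed level of these 3 was −1.53 to 0.88 on the control and −2.40 to −0.67 on the diabetic arrays. The groups of miR-342-3p did not overlap, as for 8.73% of the 126. Of the rest of this list, miR-142-3p was detected on 3 arrays, miR-142-5p on 1 and miR-150 on 0. Of 6 fibroblast and smooth muscle miRNAs 4 were tested and 0 passed, with a median of −0.50. The log2 of their summed level was −0.84 to −0.14 on the control and −0.91 to −0.85 on the diabetic arrays. Of this list, miR-145 was detected on 0 arrays. Of 3 miRNAs listed as erythroid, miR-144 was detected on 1 array and had no test. The other 2, miR-451 (−0.33) and miR-16 (−0.097), were tested and 0 passed, with a median of −0.21. The log2 of their summed level was 0.24 to 1.44 on the control and −0.081 to 0.81 on the diabetic arrays. The liver miRNA miR-122 was detected on 5 arrays, with a log2 difference of 0.083. The part of these cell types in the members' values was not tested, and in bulk RNA fewer cells of a type and less RNA per cell cannot be told apart.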

How the data were processed

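The deposited values are spot intensities of 8 1-colour Agilent miRNA arrays, made by the authors with Feature Extraction 10.5 per the file headers; the processed intensity is background-subtracted and not normalized between arrays. Flags of 0 or 1 in the deposited files mark outlier spots, saturation and signal well above background. Outlier spots were dropped, and spots averaged per probe. A probe was detected on an array if at least 50% of its spots were well above background. Probe means were divided by the array's 75th percentile, averaged per miRNA, raised to a floor of 0.0162 and converted to log2. No mouse spot was saturated (0). The number of arrays, 4 per group, limits precision. Groups were compared with limma 3.58.1 (R 4.3.3), group as the single term, over the 126 miRNAs detected on at least 4 arrays; ratios were tested with exact permutation in scipy 1.17.1. The limma step was checked on simulated data, and the permutation p on small sets of made-up numbers. Mature sequences are RefSeq's (GRCm38.p6). The members, lists and pairs were chosen with earlier results of these data known. Named miRNAs are all members, the 3 nearest patterns of each tested member, and listed markers whose values stand beside a result. Alternatives covered the scaling, background correction (normexp, offset 50, from median signals), probe summary, outlier spots, detection filter, floor, array weights, replicate block and single arrays.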

Additional observations from a re-analysis of the deposited data

How the results depend on the processing

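In all 23 alternatives 0 members passed the threshold. The count of all miRNAs that passed, 6, was 0 without scaling, 2 with detection on at least 1 array, 3 without both control 2 and diabetic 4, 10 with the replicate block, and 2 to 10 when single arrays were left out. The replicate numbers match slide columns, and the labels do not say whether they pair the samples. The correlations of same-numbered deviations, 0.21, 0.082, 0.51 and −0.29, are mixed and cannot decide it. With the replicate block no member or pair passed. Over all tested miRNAs the median difference, −0.060, became 0.26 when every mouse probe entered the scaling percentile and 0.090 with quantile normalization. Signs near 0 turned. With the percentile over all mouse probes miR-23a was at 0.10 and miR-24 at 0.099. miR-27a was at −0.034 with the median of the detected probes, −0.095 without scaling, −0.0026 with normexp, −0.14 with array weights, −0.078 without both arrays, and −0.11 to 0.13 over single arrays left out. miR-23b was at −0.051 without scaling, −0.035 with array weights, −0.060 without both arrays, and −0.084 to 0.15 over single arrays. The ratio of miR-23a to miR-24 changed by −0.030 with quantile normalization, −0.031 without both arrays and −0.027 to 0.025 over single arrays. The causes were not tested. miR-24-1* ran from 0.21 with normexp to 0.97 with every mouse probe in the percentile. The other 10 ratios kept their direction in every alternative run, with 0 passing. Array scalings other than quantile normalization, the detection filters and the replicate block leave the change of a ratio as it was. Those alternatives are therefore no test of its direction. The change for miR-23a to miR-23b ran from −0.47 to −0.22 and that for miR-23b to miR-24 from 0.23 to 0.44. With an array left out, the smallest exact p is 0.0571, and with the block 0.125. Array weights do not apply to ratios, and members have 2 probes, so the median over probes equals the mean. Taking the brightest probe of each miRNA was chosen after seeing the data. Dim signal limits miR-24-1* and miR-24-2*.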
